A study of Bos taurus with 40 samples.

Results

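The genes described here are 5 genes of hepatic lipogenesis, SREBF1, ACACA, FASN, SCD and DGAT1, chosen by their Ensembl identifiers from the 24616 genes in the read count tables. The identifiers were ENSBTAG00000007884 for SREBF1, ENSBTAG00000017567 for ACACA, ENSBTAG00000015980 for FASN, ENSBTAG00000045728 for SCD and ENSBTAG00000026356 for DGAT1. The count tables hold identifiers without gene names, so each name is the one given with its identifier in the selection and was not checked against an annotation. The choice was made by identifier, without a threshold on measured values, but with earlier results of these data known. All 5 genes had the 4 or more reads per animal that were required for testing.

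RNAseq reads were counted in liver of 40 Holstein Friesian bulls, in 4 groups of 10, to ask how dietary restriction and later re-alimentation altered hepatic transcript abundance. RES animals in Period 1 had received a restricted allowance for 125 days, set for a growth of 0.6 kg/day, and ADLIB animals in Period 1 had eaten ad libitum for the same time. RES animals in Period 2 had been restricted for 125 days and then fed ad libitum for 55 days, and ADLIB animals in Period 2 had been fed ad libitum in both periods. All 4 groups received the same diet of 70% concentrate and 30% grass silage, and no age is printed in the labels. The bulls had been blocked on weight, age, sire and earlier gain when the diets were assigned, and the labels do not give the blocks. Animals of Period 1 and Period 2 were treated as different animals, as the study's methods describe them, although the labels can also be read as repeated biopsies of the same bulls. As treated here, a difference between periods also holds any difference of age or slaughter day, which cannot be told apart. Markers of hepatocytes and of other liver cells could not be matched to identifiers, so the tissue label was not checked. In bulk tissue, fewer cells of a type and less RNA per cell cannot be told apart.

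Lipogenesis turns acetyl-CoA into fatty acids and stores them as triacylglycerol. SREBF1 encodes a transcription factor that switches on lipogenic enzyme genes when insulin and nutrients are plentiful. ACACA encodes the enzyme that makes malonyl-CoA, and FASN the enzyme that builds the fatty acid chain from it. SCD desaturates fatty acids, and DGAT1 attaches the last acyl group of triacylglycerol. In cattle, adipose tissue is the main site of fatty acid synthesis and the liver makes comparatively little.

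Reads on genes ranged from 8656866 to 15520237 per animal. The percentage of reads that fell on genes was 78.1 ± 1.07 in ADLIB and 75.8 ± 1.79 in RES in Period 1, and 76.6 ± 1.33 in ADLIB and 77.7 ± 1.55 in RES in Period 2 (SD, n = 10). Library names open with a number from 1 to 4 whose meaning the labels do not give. Number 2 was held by 0 ADLIB and 3 RES animals in Period 1 and by 5 ADLIB and 2 RES animals in Period 2. The percentage on genes and the library number were therefore unevenly spread over the groups, and values with each of them in the model are given where they changed a call, a sign or a size by much.

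Levels below are CPM (read counts scaled to a common library size) after TMM adjustment of the library sizes, and each is compared only with the same gene in other animals, since gene length was not part of the scale. Differences are log2 values from edgeR's quasi-likelihood test with standard errors, and false discovery rates (FDR) are Benjamini-Hochberg adjusted over all genes tested. A gene was called at an FDR under 0.05 with a log2 difference of at least 0.32 in size. For the test of whether the diet difference changed between periods, FDR alone was used.

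SREBF1 was the 1 gene of the 5 whose change of the diet difference between the periods passed the threshold, in a test that other models did not all bear out. In Period 1 the level in ADLIB ran from 61.9 to 143 CPM with a median of 78.6, and the level in RES ran from 58.0 to 129 CPM with a median of 68.0. In Period 2 ADLIB ran from 33.7 to 74.3 CPM with a median of 61.7. RES in Period 2 ran from 59.8 to 129 CPM with a median of 88.7. The ranges of the diets overlapped in both periods, but in Period 2, 8 of 10 RES animals lay above every ADLIB animal.

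In Period 1 the log2 difference of SREBF1 between RES and ADLIB was -0.13 (SE 0.17, 95% interval -0.48 to 0.21, edgeR FDR = 0.639). In Period 2 it was 0.64 (SE 0.15), a level 1.56 times that of ADLIB, with a 95% interval of 0.32 to 0.96 on the log2 scale. This did not pass the correction over all genes (edgeR quasi-likelihood p = 3.65e-04, FDR = 0.190). SREBF1 was 23rd of 12202 genes by its p-value in that period, and its FDR was the lowest value reached by any gene. DESeq2 gave SREBF1 an FDR of 0.0296 and edgeR's exact test gave 0.0305, so both called it. By edgeR's quasi-likelihood test the Period 2 difference was 0.58 with the library number in the model (FDR = 0.280). Without library number 2 it was 0.46 (FDR = 0.945). The FDR over all alternatives ran from 0.0296 to 0.945. Within each of the 4 library numbers the mean log2 level in Period 2 was higher in RES, by 0.39, 0.67, 0.67 and 0.40 for numbers 1 to 4, although numbers 1 and 4 each held 1 ADLIB animal. SREBF1 was lower in the more deeply sequenced animals of Period 2, with r = -0.76 in ADLIB and r = -0.65 in RES against log2 reads on genes (n = 10 each), and the part of depth in the difference was not tested.

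The diet difference of SREBF1 was 0.76 larger on the log2 scale in Period 2 than in Period 1 (SE 0.23, 95% interval 0.28 to 1.23, edgeR FDR = 0.0336). Of the 5 genes, 1 passed this test, whereas 9.45% of all 11868 genes tested passed it in either direction and 3.61% passed with a larger difference in Period 2. The call was lost with the library number in the model (0.52, FDR = 0.150), with the percentage of reads on genes in the model (0.80, FDR = 0.0857) and without the animals of library number 2 (0.45, FDR = 0.340). It was also lost without ADLIB replicate 1 of Period 1 (FDR = 0.0577), ADLIB replicate 2 of Period 2 (FDR = 0.0509) or ADLIB replicate 5 of Period 2 (FDR = 0.0517), and with total reads as the only scaling (FDR = 0.0525).

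**Figure D1:**
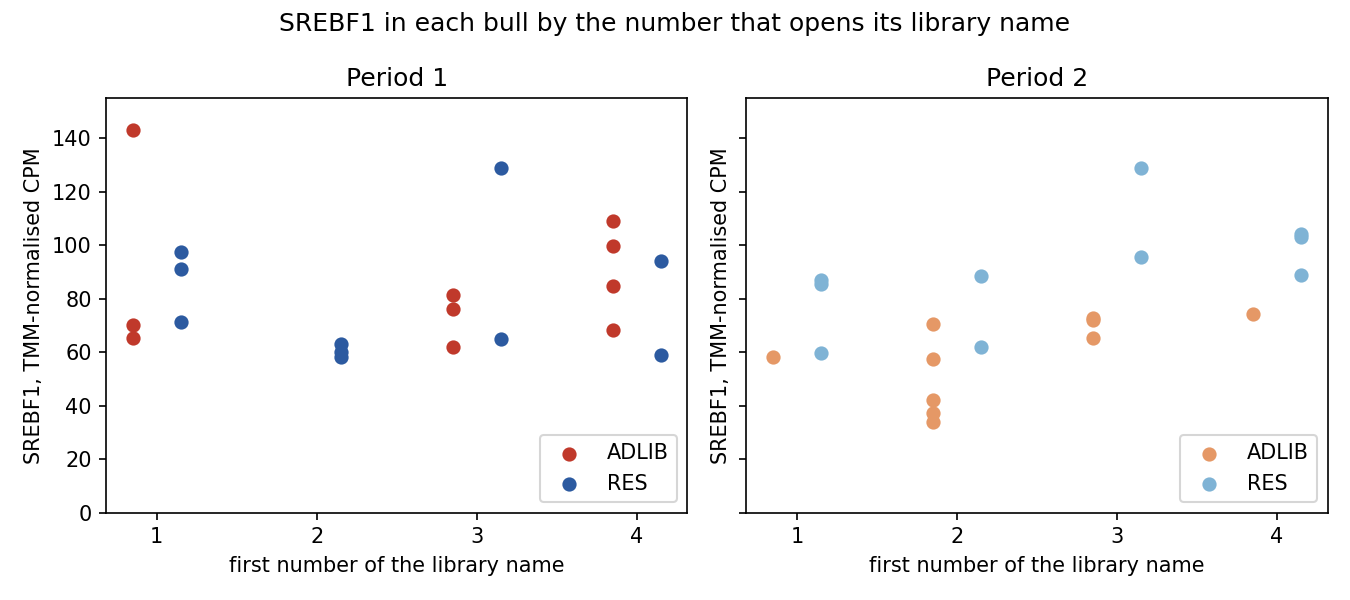
Level of SREBF1 (TMM-normalised CPM, vertical axis) in each of 40 bulls, by the number that opens the library name (horizontal axis), with ADLIB and RES as separate colours and 1 panel per period. In Period 2 the 5 ADLIB animals of number 2 span 33.7 to 70.4 CPM, and no ADLIB animal of Period 1 holds that number.

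The ADLIB animals of Period 2 had the lowest mean level of SREBF1, 58.3 ± 15.5 CPM, against 78.7 ± 23.4 in RES of Period 1, 85.9 ± 25.0 in ADLIB of Period 1 and 90.3 ± 20.2 in RES of Period 2 (SD, n = 10). In ADLIB, 5 of 10 animals of Period 2 lay below every animal of Period 1. The log2 difference between periods in ADLIB was -0.56 (SE 0.17, a 0.679-fold level with 95% interval 0.538 to 0.857) and just missed the threshold (edgeR FDR = 0.0578). It was called by DESeq2 (FDR = 0.0324), and by edgeR without ADLIB replicate 6 or 7 of Period 1, RES replicate 8 of Period 1, or ADLIB replicate 8 or 9 of Period 2 (FDR from 0.0433 to 0.0470). It was -0.36 (FDR = 0.367) with the library number in the model, -0.58 (FDR = 0.119) with the percentage of reads on genes in the model and -0.33 (FDR = 0.513) without library number 2. The 4 lowest ADLIB animals of Period 2 were all of library number 2.

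In RES the difference of SREBF1 between periods was 0.20 (SE 0.17, edgeR FDR = 0.387). No pair of neighbouring groups in the order of the means differed by this test, the closest being ADLIB of Period 2 and RES of Period 1 (edgeR FDR = 0.0548).

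ACACA encodes acetyl-CoA carboxylase alpha, which makes malonyl-CoA in the committed step of fatty acid synthesis. Its level in RES of Period 1 ran from 9.85 to 28.1 CPM with a median of 14.8, and in ADLIB of Period 1 from 12.5 to 36.7 CPM with a median of 21.4. In Period 2 RES ran from 15.2 to 38.3 CPM with a median of 25.2 and ADLIB from 13.3 to 30.7 CPM with a median of 25.6. RES of Period 1 was the low group. All 10 RES animals of Period 2 lay above its median, while the ranges overlapped.

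ACACA rose in RES from the end of restriction to day 55 of re-alimentation, by 0.56 on the log2 scale (SE 0.19), a 1.48-fold level with a 95% interval of 1.13 to 1.94 (edgeR FDR = 0.0264). It was the 1 gene of the 5 called in this comparison, in which 23.1% of 11868 genes were called in either direction and 10.6% were called higher in Period 2. The call was lost without RES replicate 4 of Period 2, the animal with the highest level (0.47, FDR = 0.0718), and without library number 2 (0.36, FDR = 0.235). It was also lost in a fit of the RES animals alone with the replicate number as a block (0.61, edgeR FDR = 0.0642), a number that the sources do not say links animals across periods. It held with the library number (0.56, FDR = 0.0314) or the percentage on genes (0.69, FDR = 0.0129) in the model. In ADLIB the difference between periods was 0.01 (SE 0.19, 95% interval -0.38 to 0.40, edgeR FDR = 0.988).

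In Period 1 the log2 difference of ACACA between RES and ADLIB was -0.50 (SE 0.20, 95% interval -0.93 to -0.08). It did not pass the correction (edgeR quasi-likelihood p = 0.0229, FDR = 0.114), although it became a call without RES replicate 2 (FDR = 0.0499) or RES replicate 10 (FDR = 0.0436). Within the 3 library numbers that held both diets the difference was -0.44, -0.41 and -0.37. In Period 2 the difference was 0.07 (SE 0.17, edgeR FDR = 0.887). The change of the diet difference between periods, 0.55 with a 95% interval of 0.00 to 1.10, did not pass the correction (edgeR FDR = 0.200). This change was 0.79 with the percentage on genes in the model (edgeR FDR = 0.131) and 0.35 without library number 2 (edgeR FDR = 0.577).

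FASN encodes fatty acid synthase, which builds palmitate from malonyl-CoA. Its level ran from 13.7 to 71.6 CPM (median 38.6) in ADLIB and from 11.6 to 71.3 CPM (median 35.7) in RES in Period 1. In Period 2 it ran from 12.7 to 73.9 CPM (median 26.5) in ADLIB and from 12.5 to 42.9 CPM (median 32.6) in RES. The 4 groups overlapped almost entirely. The highest animal of a group stood between 3.42 and 6.16 times above the lowest.

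The log2 difference of FASN between the diets was 0.01 in Period 1 (95% interval -0.67 to 0.69, edgeR FDR = 0.990) and -0.12 in Period 2 (95% interval -0.78 to 0.54, edgeR FDR = 0.901). Between periods it was -0.35 in RES (SE 0.33, FDR = 0.450) and -0.20 in ADLIB (SE 0.33, FDR = 0.805), by the same test. The interval of Period 1 reached a level 1.61 times higher in RES. The diet difference in Period 1 was 0.33 with the library number in the model and -0.04 with the share of reads on genes in it.

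In Period 2 the FASN difference was 0.04 with the library number, 0.34 with the percentage and -0.58 without library number 2. The change of the diet difference between periods was -0.15 (SE 0.47, edgeR FDR = 0.879), and it became 0.42 with the percentage and -0.83 without library number 2. The direction of FASN between the diets was therefore not settled, and no setting gave a call.

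SCD encodes stearoyl-CoA desaturase, which makes monounsaturated fatty acids such as oleate. In Period 1 it ran from 8.73 to 60.8 CPM (median 20.5) in ADLIB and from 4.77 to 52.0 CPM (median 16.4) in RES. In Period 2 it ran from 4.78 to 31.4 CPM (median 14.3) in ADLIB and from 9.27 to 69.7 CPM (median 30.1) in RES. The ranges overlapped in both periods, and in Period 2, 4 of 10 RES animals lay above every ADLIB animal and 8 of 10 above the ADLIB median.

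The difference of SCD between the diets in Period 2 had the largest size of the 5 genes, 1.08 on the log2 scale (SE 0.35), a 2.11-fold level in RES with a 95% interval of 1.27 to 3.51. It did not pass the correction (edgeR quasi-likelihood p = 0.00632, FDR = 0.257). The mean log2 level was higher in RES within each of the 4 library numbers, by 0.77, 1.64, 1.32 and 0.97 for numbers 1 to 4. However, numbers 1 and 4 each held 1 ADLIB animal, and numbers 2 and 3 each held 2 RES animals. The difference was 1.30 with the library number in the model, 1.24 with the percentage on genes and 0.85 without library number 2, with no call. In Period 1 the difference was -0.20 (SE 0.45, edgeR FDR = 0.805).

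The change of the SCD diet difference between periods was 1.26 (SE 0.57, edgeR FDR = 0.165), and 0.81 without library number 2. The difference between periods was -0.82 in ADLIB (SE 0.41, FDR = 0.294) and 0.44 in RES (SE 0.40, FDR = 0.434). No call was made for SCD in any of these comparisons, which share groups with one another.

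DGAT1 encodes an enzyme of the final step of triacylglycerol synthesis and varied least of the 5 genes. It ran from 12.5 to 22.1 CPM (median 16.7) in ADLIB and from 11.0 to 25.3 CPM (median 17.5) in RES in Period 1. In Period 2 it ran from 13.3 to 22.5 CPM (median 17.1) in ADLIB and from 15.4 to 27.5 CPM (median 18.9) in RES. All 4 ranges overlapped. The log2 difference between diets was 0.12 in Period 1 (95% interval -0.16 to 0.41, edgeR FDR = 0.593) and 0.22 in Period 2 (95% interval -0.02 to 0.46, edgeR FDR = 0.423). The difference in Period 2 was 0.07 without library number 2. Between periods it was 0.12 in RES and 0.04 in ADLIB, with an SE of 0.13 in each and an edgeR FDR of 0.537 and 0.925.

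**Figure D2:**
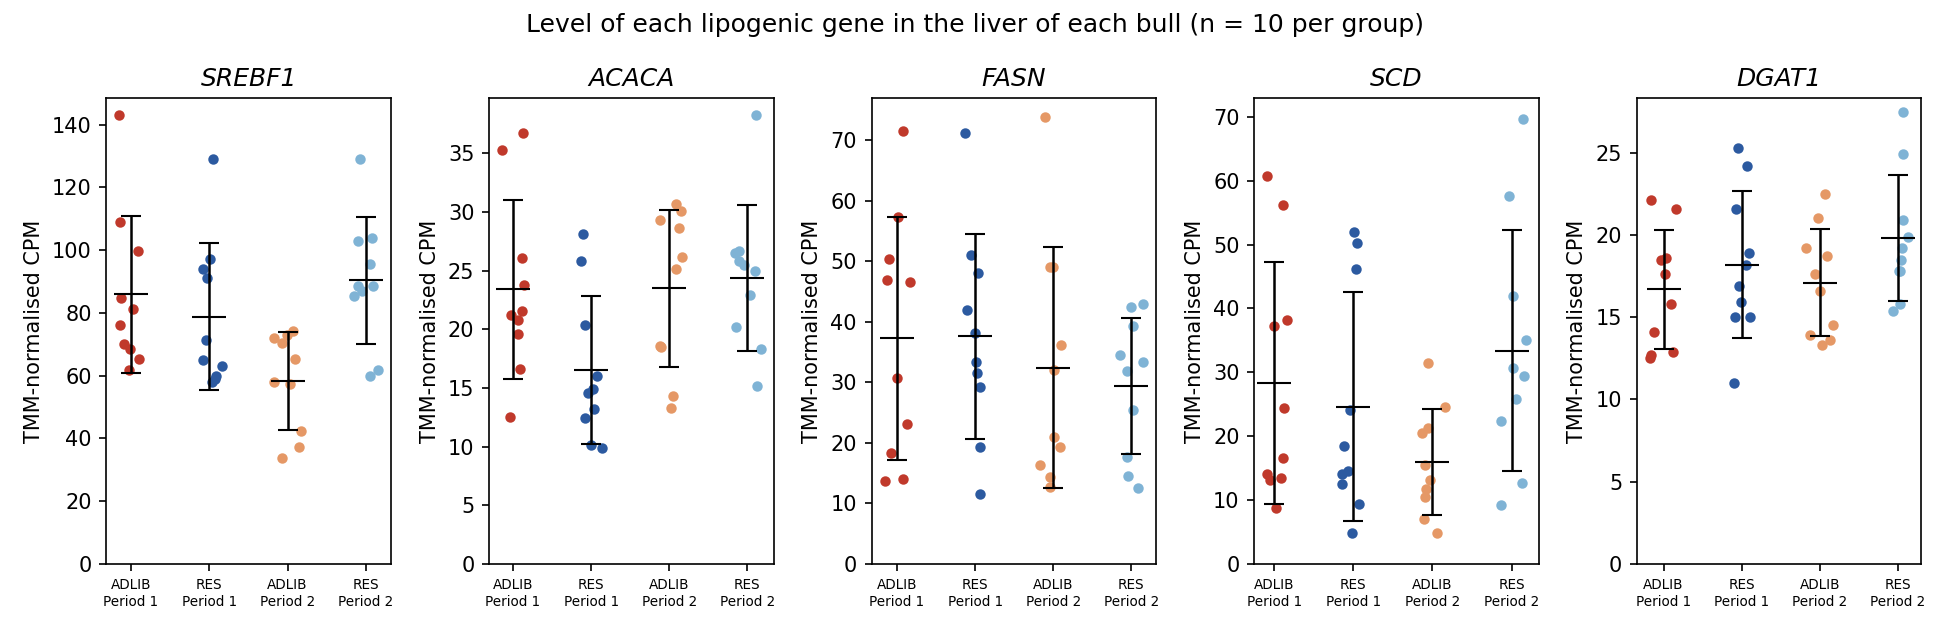
Level (TMM-normalised CPM, vertical axis from 0) of the 5 lipogenic genes in each bull, with 1 point per animal and black bars for the mean ± SD of 10 animals per group. SREBF1 is lowest in ADLIB of Period 2 (mean 58.3 CPM) and ACACA is lowest in RES of Period 1 (mean 16.5 CPM), whereas the groups of FASN overlap almost entirely.

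Counted over the 5 genes, the comparison of RES with ADLIB in Period 1 gave 0 calls by edgeR's quasi-likelihood test. Of all 12047 genes, 10.3% were called. In the same test, 1 of the 5 genes and 27.7% of all genes had an unadjusted p under 0.05. DESeq2 (12.2% of genes called), limma voom (10.3%) and edgeR's exact test (11.3%) also called 0 of the 5. In Period 2 the quasi-likelihood test called 0 of the 5 and 0% of 12202 genes. There, 2 of the 5 genes and 1565 of all genes (12.8%) had an unadjusted p under 0.05. DESeq2 called 52 genes (0.426%) and the exact test 53 genes (0.434%), SREBF1 among them in each, and limma voom called 0. Between periods in ADLIB 0 of the 5 were called by the quasi-likelihood test, against 2.28% of 11868 genes. By the same test, 1 of the 5 and 17.5% of all genes had an unadjusted p under 0.05. DESeq2 called 1 of the 5 in that comparison, SREBF1, and 3.64% of all genes. For the change of the diet difference between periods, 3 of the 5 genes and 24.6% of 11868 genes had an unadjusted p under 0.05.

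These backgrounds moved with the unevenly spread measures. In Period 1 the 1243 genes called became 394 with the percentage of reads on genes in the model. Between periods in ADLIB the 270 genes called became 58 with the library number, 73 with the percentage and 0 without library number 2. For the change of the diet difference, 1121 became 629 with the percentage and 401 without library number 2. None of the 5 genes was called in any of these fits.

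**Figure D3:**
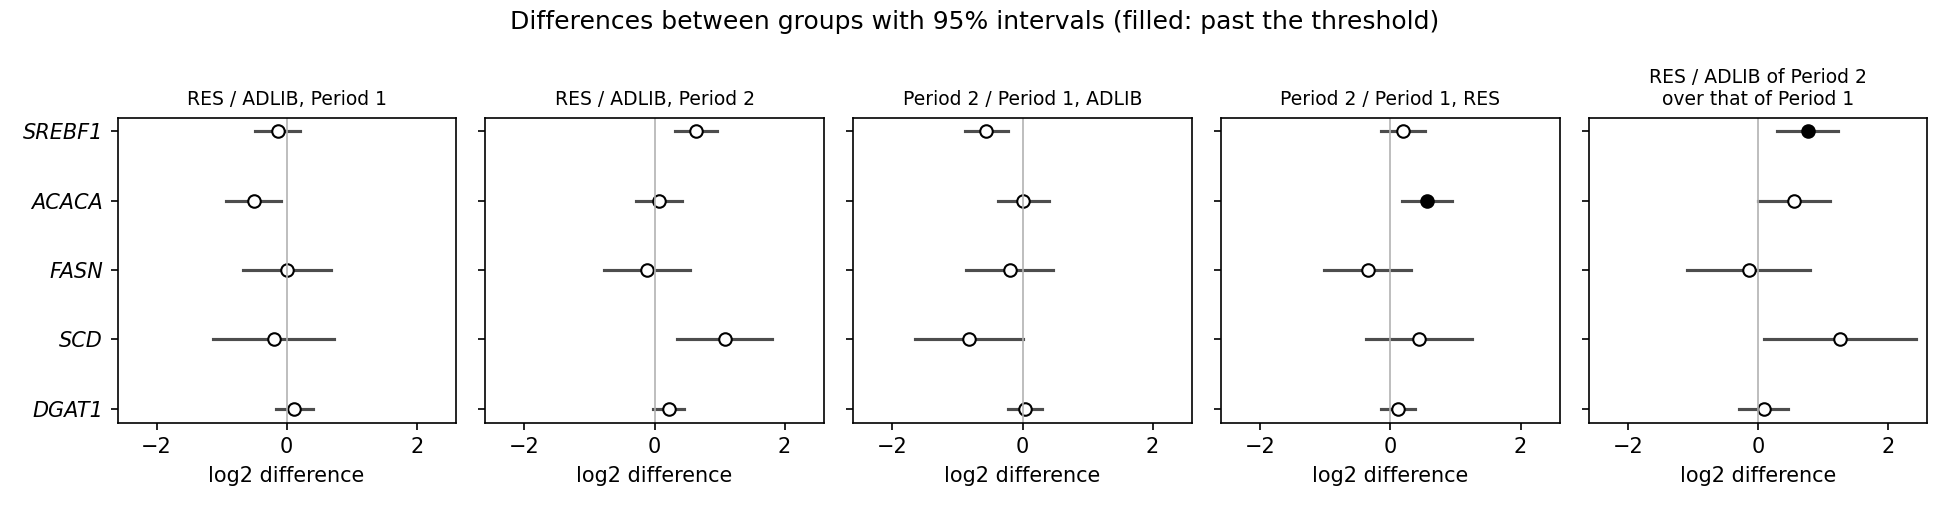
Log2 difference (horizontal axis) of the 5 genes in 5 comparisons, with lines for the 95% interval and filled points for calls past the threshold. The filled points are SREBF1 for the change of the diet difference between periods (0.76) and ACACA between periods in RES (0.56).

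RES of Period 2 was also set against ADLIB of Period 1, animals that had not been restricted. None of the 5 genes was called by edgeR's quasi-likelihood test, against 5.13% of all genes, and the log2 differences ran from -0.34 for FASN to 0.25 for DGAT1. The DGAT1 difference had the lowest p of the 5 (p = 0.0684, edgeR FDR = 0.240). SREBF1 differed by 0.07 with a 95% interval of -0.26 to 0.41, and ACACA by 0.07 with an interval of -0.32 to 0.46.

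The animals of a group differed much more in FASN and SCD than in most genes. The biological coefficient of variation, which is the spread between animals beyond counting error, was 0.610 for SCD and 0.503 for FASN, at the 99.2 and 98.0 percentile of 11868 genes. It was 0.293 for ACACA (85.5 percentile), 0.259 for SREBF1 (78.6 percentile) and 0.197 for DGAT1 (56.8 percentile), where the median over all genes was 0.184. Counting error was small beside this, since the fewest reads on any of the 5 genes in an animal was 47, for SCD in RES of Period 1.

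The levels of FASN, ACACA and SCD were compared across the animals of each group, and 3 of the 12 values of r among them passed the correction. Over the 40 pairings of 10 gene pairs with 4 groups, Pearson's r of log2 CPM was computed over the 10 animals of a group, with 100000 permutations for each p and Benjamini-Hochberg adjustment over the 40. FASN and ACACA had r between 0.58 and 0.89, FASN and SCD between 0.45 and 0.85, and ACACA and SCD between 0.45 and 0.81, positive in 4 of 4 groups for each pair with all 10 animals. With the 2 animals farthest from the median of the first gene left out, some values that had not passed fell. In RES of Period 2 they became -0.10 for FASN with ACACA and -0.12 for ACACA with SCD. In ADLIB of Period 1 they became 0.07 for FASN with SCD and 0.02 for ACACA with SCD. Leaving these animals out also narrows the range of the first gene, which can lower r by itself, so it does not show what these values rest on. A library number held at most 5 animals of a group, so no correlation was computed within a number.

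In ADLIB of Period 1 the correlation of FASN with ACACA was r = 0.89 (permutation test, adjusted p = 0.00400) and Spearman's rho was 0.95 (permutation test, adjusted p = 0.00280), with r = 0.80 after the 2 animals farthest from the FASN median were left out. In RES of Period 1 FASN and SCD had r = 0.85 (permutation test, adjusted p = 0.0179) and rho = 0.81 (permutation test, adjusted p = 0.0710), with r = 0.64 without those 2 animals. ACACA and SCD in the same group had r = 0.81 (permutation test, adjusted p = 0.0473) and rho = 0.78 (permutation test, adjusted p = 0.0843), with r = 0.62 without 2 animals. The rank correlations of these last pairs did not pass the correction. For FASN with ACACA in RES of Period 1 it was the rank correlation that passed, with rho = 0.85 (permutation test, adjusted p = 0.0385) against r = 0.78 (permutation test, adjusted p = 0.0515).

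Of the 40 values of r, 4 passed, and the remaining one was SREBF1 with DGAT1 in ADLIB of Period 2, with r = 0.90 (permutation test, adjusted p = 0.00400) and rho = 0.95 (permutation test, adjusted p = 0.00280), and r = 0.88 without 2 animals. Both genes were lower in the more deeply sequenced animals of that group, with r = -0.71 for DGAT1 against log2 reads on genes and r = -0.76 for SREBF1, and the part of depth in the correlation was not tested. In the other groups this pair ran from -0.30 to 0.33. SREBF1 with FASN ran from 0.18 to 0.66 and SREBF1 with ACACA from -0.55 to 0.47, and 0 of these 8 values passed the correction. FASN was lower where more of the reads fell on genes in Period 2, with r = -0.76 in ADLIB and r = -0.60 in RES.

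**Figure D4:**
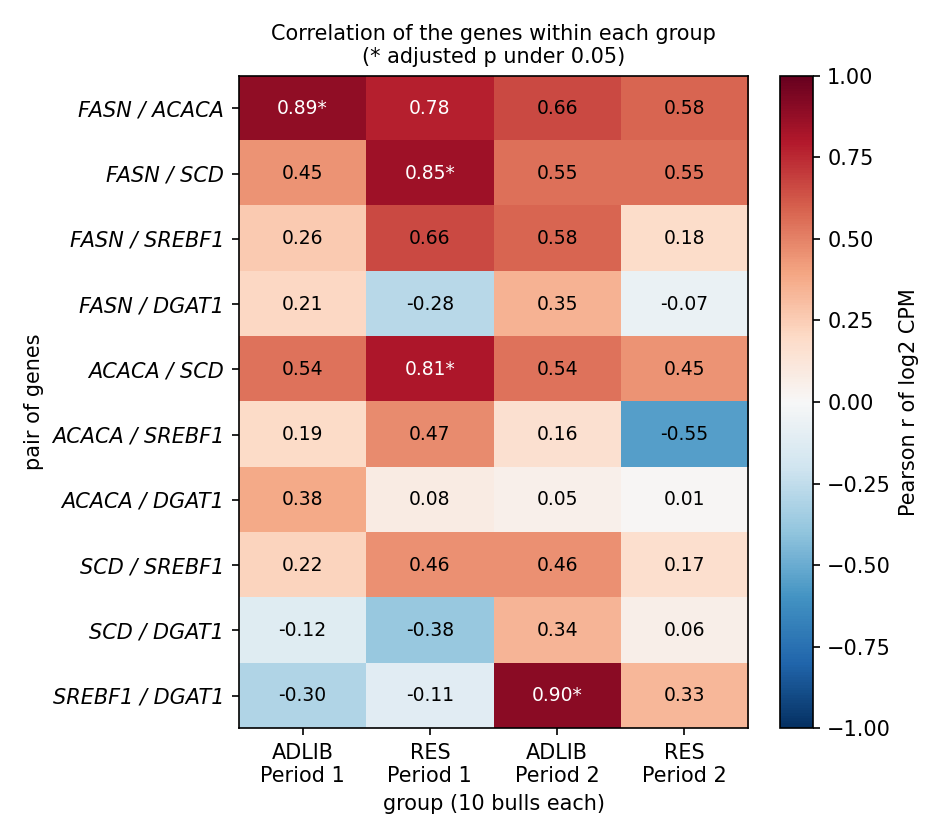
Pearson's r of log2 CPM over the 10 bulls of each group (columns) for each pair of the 5 genes (rows), coloured from -1 to 1, with an asterisk for an adjusted permutation p under 0.05. The pairs among FASN, ACACA and SCD are positive in every group with all 10 animals, and SREBF1 with DGAT1 reaches 0.90 in ADLIB of Period 2 and lies between -0.30 and 0.33 in the others.

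Likeness of pattern was also described over all 40 animals, as the correlation of the deviations of log2 CPM from the group means, with the other 11867 genes as the field. For ACACA the most similar gene was FASN (r = 0.74), and SCD was 14th (r = 0.61). For FASN, ACACA was 16th, SCD 34th (r = 0.60) and SREBF1 196th (r = 0.44), and DGAT1 was 4781st (r = 0.05). The most similar identifier to SCD was ENSBTAG00000047957 (r = 0.98) and the most similar to FASN was ENSBTAG00000016465 (r = 0.90), both without a gene name in the tables. ENSBTAG00000047957 held between 9 and 366 reads per animal, and whether it overlaps SCD or shares sequence with it was not tested, so the count of SCD may be split between the identifiers. These are correlations over 40 animals that share library preparation and scaling, and are given as a description.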

How the data were processed

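The authors made single-end libraries from liver RNA of 40 bulls. Reads were aligned to UMD3.1 with TopHat and counted per Ensembl gene with HTSeq, and the authors deposited the read counts without normalisation, which were used here. The submitters' processing notes also name CASAVA 1.4 and edgeR. The strand setting of the counting is not given in the sources used here, so reads of overlapping antisense genes cannot be told apart. The normalised tables were not used, nor were the 92 spike-in rows, which were at 0 in every animal.

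Samples were grouped by diet and period from the labels. The labels' protocols can be read as biopsies of the same bulls in both periods, whereas the methods describe separate animals slaughtered at each time point, and the animals were treated as separate. The methods state that bulls were blocked on weight, age, sire and earlier gain when the diets were assigned. Which RES and ADLIB animals shared a block is not given in the sources used here. No animals of a group agreed within sampling noise (lowest chi-square per degree of freedom 19.0).

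The robust quasi-likelihood test of edgeR 4.0.16 (R 4.3.3) was applied to the counts after TMM scaling, on genes that had 4 or more reads in each animal. The diets were compared within each period. The interaction, the differences between periods and the order of the groups came from 1 fit of the 40 animals. CPM levels use the 40-animal scaling, and log2 CPM a prior count of 2. Alternatives were limma 3.58.1, DESeq2 1.42.0, the exact test of edgeR, other scalings and filters, fits without each animal, a block for the replicate or the library number, and the percentage on genes as a covariate. The fit without library number 2 was added after the data had been seen. Correlations and their permutations were computed with numpy 2.4.6, with ranks from scipy 1.17.1. The tests of the diets in each period, of the interaction and of the correlations were first run on simulated data. The differences between periods and the models with a block or a covariate were not.

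The 5 genes, the lists and the tests were chosen with earlier results of these data known. The rule for named genes was the 5 genes, listed genes whose symbols could be matched, and the 2 identifiers most like a member. Of 104 further genes, on lists of SREBP processing, cholesterol synthesis, fatty acid synthesis and uptake, triacylglycerol assembly and cell markers (hepatocytes, cholangiocytes, endothelium, macrophages, leukocytes, stellate cells and adipocytes), 0 could be matched. The reference table matched 0 of 24616 identifiers, so no coordinates, sequences or gene lengths are given.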

Additional observations from a re-analysis of the deposited data

Results flagged for a closer look

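SREBF1 differed between the periods in its diet difference, by 0.76 on the log2 scale (edgeR's quasi-likelihood test of the interaction, FDR = 0.0336). The call was lost with the library number in the model (FDR = 0.150) and with the share of reads on genes as a covariate (FDR = 0.0857). Without library number 2, in a fit added after the data had been seen, the value was 0.45 (FDR = 0.340). What the library number stands for is not given in the labels, and its part in the interaction was not tested beyond these fits.

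ADLIB replicate 5 of Period 2 held 15520237 reads on genes, with the next animal of its group at 12133068, a gap of 0.553 of the range of the group. It was the 1 animal apart among 28 groups of values examined, where chance would give about 1.4. Its SREBF1 level was 37.2 CPM, the second lowest of its group, and without it the SREBF1 interaction was 0.70 (edgeR FDR = 0.0517).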

How the results depend on the processing

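Of 280 values of the 5 genes under other settings, 259 kept their direction and side of the threshold, 6 lost a call, 3 gained one and 12 changed sign, beside the fits without single animals. The number of the 5 genes called moved as the single genes did, to 1 in Period 2 by DESeq2 or the exact test and in ADLIB between periods by DESeq2, and to 0 wherever a call was lost.

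For SREBF1 the change of the diet difference was 0.71 with total reads scaling, 0.52 with the library number, 0.80 with the percentage on genes and 0.45 without library number 2. The diet difference in Period 2 was 0.64 by DESeq2 and the exact test, and the ADLIB difference between periods -0.56 by DESeq2. ACACA between periods in RES was 0.36 without library number 2.

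Whether the replicate number pairs animals was not settled, as 4 of 10 same-numbered pairs correlated above 0.1 in each comparison. For ADLIB with RES in Period 1 the mean r of same-numbered pairs was 0.0914 against -0.0100 for other pairs. There, 4 of 10 animals were most like their own number. Between periods in RES the means were 0.0874 and -0.00969, with 3 of 10. In Period 2 they were -0.00398 and 5.20e-04, and between periods in ADLIB 0.0331 and -0.00377, with 1 of 10 in each. With the replicate number as a block in a fit of the RES animals alone, ACACA between periods was 0.61 (edgeR FDR = 0.0642, 0 of the 5 called). In the fit of all animals the block was a different one, the replicate number within each period. With that block the SREBF1 interaction was 0.78 (edgeR FDR = 0.0152).

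Sign changes in Period 1 were FASN -0.04 and DGAT1 -0.02 with the percentage on genes, SREBF1 0.00 with the library number and 0.01 without number 2, and SCD 0.04 without number 2. In Period 2 they were FASN 0.04 with the library number and 0.34 with the percentage, and ACACA -0.06 without number 2. FASN was 0.42 for the interaction with the percentage, and between periods in ADLIB 0.04 with the library number and 0.15 without number 2. ACACA in ADLIB was -0.10 with the percentage.

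Without single animals, FASN ran from -0.14 to 0.17 in Period 1, -0.22 to 0.09 in Period 2 and -0.29 to 0.07 for the interaction. ACACA ran from -0.61 to -0.41 in Period 1, -0.03 to 0.13 in Period 2, 0.47 to 0.69 in RES and -0.06 to 0.11 in ADLIB. SREBF1 ran from 0.66 to 0.88 for the interaction and -0.60 to -0.44 in ADLIB, called there in 5 of 40 fits. DGAT1 ran from -0.02 to 0.09 in ADLIB. The number of the 5 called ran from 0 to 1 in all comparisons but the diets in Period 2, where it was 0.

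Over all genes, 1243 calls in Period 1 became 394 with the percentage on genes, and 1121 for the interaction became 629 with it and 401 without number 2. The 14 calls in Period 2 with all animals in 1 fit stood against 0, with 1 call without RES replicate 3 or with the library number. The 270 in ADLIB became 794 with total reads scaling, 432 by DESeq2, 58 with the library number, 73 with the percentage, 94 in a fit of the 2 ADLIB groups alone with the replicate block (239 without the block) and 0 without number 2, and ran from 113 to 446 without single animals (moved over 1.5 times by ADLIB replicates 1, 4 and 10 of Period 1 and 2, 4, 7 and 8 of Period 2). Total reads scaling moved the share of higher calls in Period 1 (49.3% to 75.8%), between periods in RES (46.0% to 68.5%) and between periods in ADLIB (73.3% to 96.7%), with a median log2 difference of all genes of 0.115, 0.111 and 0.120. ACACA with SCD in RES of Period 1 then had an adjusted permutation p of 0.0522. The cause of these changes was not tested.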
